A study of Mus musculus with 2 samples.

Results

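The genes described here are the haemoglobin genes of the mouse together with a pair of red cell genes, measured as RNA in the gastrocnemius, the main calf muscle. They are Hba-a1, Hba-a2, Hbb-bs and Hbb-bt, the adult globin genes, Hba-x, Hbb-y and Hbb-bh1, the embryonic globin genes, and Alas2 and Slc4a1. The genes were found by symbol in the target names of the deposited transcript tables and followed by gene identifier through the other tables, which gave 9 genes of the 55536 annotated genes in the gene table. The study deposited 2 total RNA libraries of 1 group, from male B6CASTF1/J mice 10 days old, a hybrid of the C57BL/6J and CAST/EiJ strains supplied by The Jackson Laboratory. Each library came from 300 ng of muscle RNA with ERCC spike-in RNAs added, and the labels call the libraries biological replicates 2 and 1. Their animal numbers differ in the labels while their donor code is shared, so the spread between libraries is that between 2 samples.

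Haemoglobin carries oxygen in red blood cells and is built from alpha-type and beta-type chains, each holding a haem group. The mouse keeps its alpha-type genes in a cluster on chromosome 11 and its beta-type genes in a cluster on chromosome 7, and in each cluster embryonic genes are used by the first red cells and adult genes later. Maturing red cells lose their nucleus while still holding globin RNA, so a muscle sample can carry globin RNA with the blood in its vessels.

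Expected counts totalled 38160786 for replicate 2 and 38874862 for replicate 1, and spike-ins took 0.735% and 0.741% of them. With 1 group of 2 replicates there was no second condition to compare, and no test across libraries could be made. The libraries were set side by side as the ratio of replicate 2 over replicate 1, and the intervals of these ratios are exact binomial intervals at 95% that cover counting error only. The 8 skeletal muscle markers summed to 81870 TPM (transcript levels per length and library total) in replicate 2 and 80999 in replicate 1, and all 8 were above 1 TPM in both. In bulk RNA, fewer cells of a type and less RNA per cell cannot be told apart. Reads were placed on mm10, the genome of C57BL/6J, and how CAST/EiJ copies of these genes were counted was not tested.

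The adult genes come as near-identical pairs, and the sequences show how little there is to tell the copies apart. The coding sequences of Hba-a1 and Hba-a2 (429 bases each) differed at 1 base, C381T, and those of Hbb-bs and Hbb-bt (444 bases each) at 1 base, C417T, with the base of the first-named gene given first and positions counted from the A of the start codon. Both differences lie at base 3 of their codon, codon 127 in the alpha pair and codon 139 in the beta pair. The 51 bases around each difference are printed from the GENCODE M21 transcripts (GRCm38, the same assembly as mm10), in the sense of the gene, with the differing base in capitals. They lie at chr11:32284318-32284368 and chr11:32297135-32297185 on the plus strand and at chr7:103826667-103826717 and chr7:103812658-103812708 on the minus strand.
Hba-a1: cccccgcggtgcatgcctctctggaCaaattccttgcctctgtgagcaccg
Hba-a2: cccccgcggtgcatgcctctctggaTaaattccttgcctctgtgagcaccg
Hbb-bs: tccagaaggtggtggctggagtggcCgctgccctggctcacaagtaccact
Hbb-bt: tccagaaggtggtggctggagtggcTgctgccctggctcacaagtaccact

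The embryonic genes are much less alike, as the first 60 coding bases show. The lines give them for the alpha-type genes Hba-a1 (chr11:32283707-32283766) and Hba-x (chr11:32276664-32276723) on the plus strand and the beta-type genes Hbb-bs (chr7:103827816-103827875), Hbb-y (chr7:103853093-103853152) and Hbb-bh1 (chr7:103843051-103843110) on the minus strand. Capitals mark bases of an embryonic gene that differ from Hba-a1 or Hbb-bs at the same position, 28 in Hba-x, 19 in Hbb-y and 18 in Hbb-bh1.
Hba-a1: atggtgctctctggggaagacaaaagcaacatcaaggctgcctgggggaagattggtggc
Hba-x: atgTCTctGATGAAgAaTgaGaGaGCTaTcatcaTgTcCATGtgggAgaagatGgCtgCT
Hbb-bs: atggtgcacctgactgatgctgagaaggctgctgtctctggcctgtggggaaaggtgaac
Hbb-y: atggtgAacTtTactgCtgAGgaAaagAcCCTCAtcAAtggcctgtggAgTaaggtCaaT
Hbb-bh1: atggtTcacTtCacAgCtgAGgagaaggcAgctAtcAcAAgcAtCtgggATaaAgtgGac
Over the whole coding sequence, Hba-a1 shared 62.0% of its bases with Hba-x, and Hbb-bs shared 74.3% with Hbb-y and 74.1% with Hbb-bh1, so reads of embryonic and adult genes can be told apart over most of their length.

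Outside the coding bases the annotated transcripts differ in length. The Hba-a1-201 transcript has 196 bases before the start codon and 74 after the stop codon, against 35 and 90 in Hba-a2-201. Hbb-bs-201 has 53 bases before and 131 after, against 127 and 132 in Hbb-bt-201. Cut into windows of 100 bases, 43.5% of the windows of Hba-a1-201 were found in no other of the 9 genes, compared with 25.5% for Hba-a2-201. The shares were 37.4% for Hbb-bs-201 and 45.2% for Hbb-bt-201. With windows of 31 bases the shares were 28.7% for Hba-a1-201 and 9.0% for Hba-a2-201. The windows of Hba-a1-201 before its start codon do not mark a difference in the genome: all 196 of those bases lie in a stretch that is identical upstream of Hba-a2, where the annotated transcript starts later. These shares thus describe the annotated transcripts, and reads from a longer Hba-a2 transcript would match Hba-a1-201 there.

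**Figure D1:**
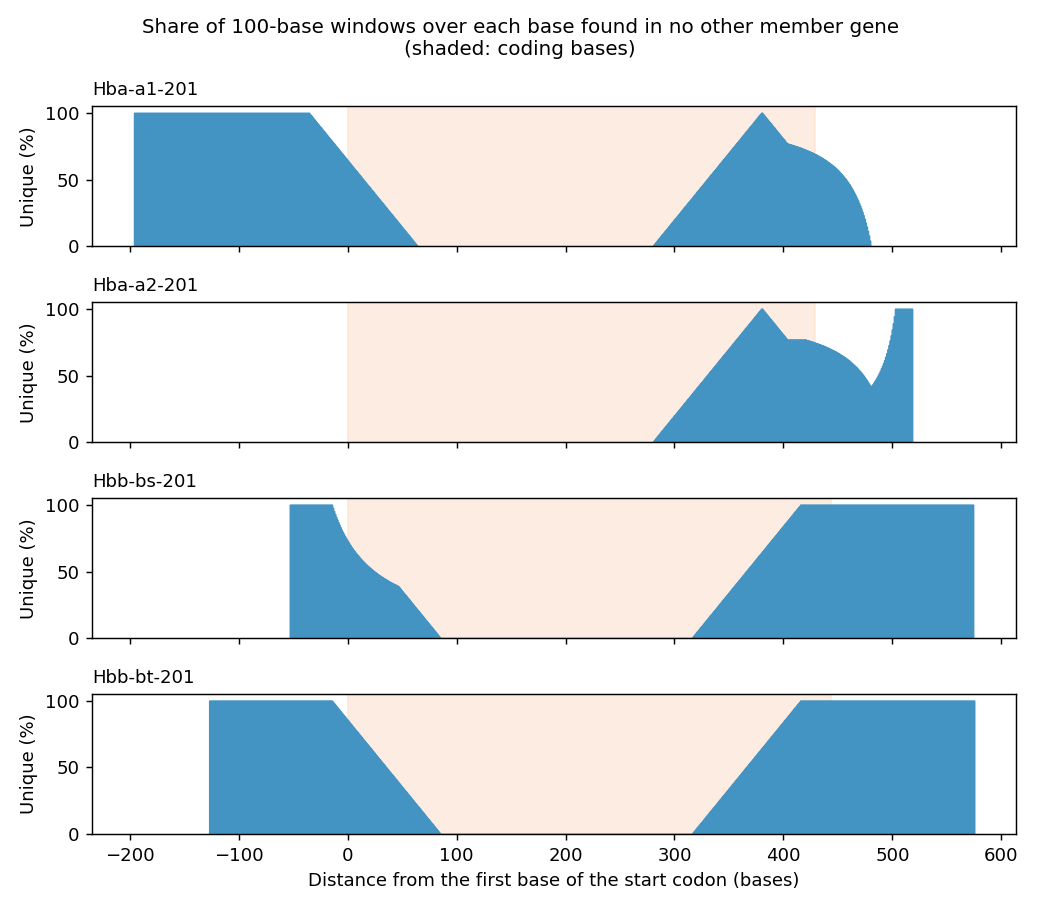
Share of the 100-base windows over each base, in percent, that occur in no other of the 9 genes, along the main transcript of each adult globin gene, with distance from the first base of the start codon in bases on the x axis and coding bases shaded. The middle of every coding sequence sits at 0%, and Hba-a2-201 has unique windows toward its 3′ end alone, while the other transcripts also have them before the start codon, which in Hba-a1-201 equal the genomic sequence upstream of Hba-a2.

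The stretch before the start site is shown for the members because globin promoters carry short boxes known from textbook work: a TATA-type box (searched as ATATAA), a box known by its letters CCAAT, a box for Klf1-type factors (searched as CACCC) and a box for GATA factors (searched as GATAA). The lines give the 150 bases before the start as RefSeq's promoter table places it (GRCm38.p6), in the sense of the gene. Matches to any of these boxes on either strand are in capitals. GENCODE M21 places the starts of Hba-a1-201 and Hba-x-201 farther upstream, so these 2 lines lie wholly inside those transcripts. The Hba-a1 line is thus part of the 196 bases before the start codon described above. The other printed lines also overlap their annotated genes, in whole or in part. The Hba-a1 line is chr11:32283522-32283671 (plus strand), Hbb-bs chr7:103827929-103828078 (minus), Hbb-bt chr7:103813924-103814073 (minus), Hba-x chr11:32276450-32276599 (plus), Hbb-y chr7:103853208-103853357 (minus) and Alas2 chrX:150547267-150547416 (plus).
Hba-a1: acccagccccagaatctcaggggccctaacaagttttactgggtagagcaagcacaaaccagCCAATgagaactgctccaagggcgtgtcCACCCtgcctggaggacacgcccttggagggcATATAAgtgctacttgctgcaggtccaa
Hbb-bs: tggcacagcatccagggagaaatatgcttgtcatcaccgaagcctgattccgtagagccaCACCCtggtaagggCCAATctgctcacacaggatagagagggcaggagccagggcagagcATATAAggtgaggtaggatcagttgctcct
Hbb-bt: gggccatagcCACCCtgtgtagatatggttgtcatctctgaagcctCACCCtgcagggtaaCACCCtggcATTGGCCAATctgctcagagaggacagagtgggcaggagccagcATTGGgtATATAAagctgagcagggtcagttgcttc
Hba-x: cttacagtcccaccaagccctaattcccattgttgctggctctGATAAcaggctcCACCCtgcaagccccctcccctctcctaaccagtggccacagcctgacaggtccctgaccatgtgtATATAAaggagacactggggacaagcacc
Hbb-y: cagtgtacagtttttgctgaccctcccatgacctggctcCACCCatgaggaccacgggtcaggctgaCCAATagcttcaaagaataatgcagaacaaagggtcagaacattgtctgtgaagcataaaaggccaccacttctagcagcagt
Alas2: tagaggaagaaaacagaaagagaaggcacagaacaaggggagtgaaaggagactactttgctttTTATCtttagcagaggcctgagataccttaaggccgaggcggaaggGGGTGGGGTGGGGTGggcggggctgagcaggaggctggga
Of the 9 genes, 7 matched the table, and Hbb-bh1 and Slc4a1 did not. The Hba-a2 promoter is not printed because it equals that of Hba-a1 over 297 of 297 overlapping bases. Over the whole entries, from 250 bases before the start to 50 after it, the Klf1-type box matched 7 of 7 members and the GATA box 7 of 7, against 57.5% and 25.4% of all 32851 promoters in the table. The CCAAT box matched 5 of 7 members and 37.4% of all promoters, and the TATA-type box matched 5 of 7 and 9.8%. No match overlapped another. All 4 adult globin genes had the TATA-type, CCAAT and Klf1-type boxes within the printed 150 bases, while the GATA box fell there in Hba-x and Alas2 and farther out or past the start in the others. A match of these letters is a description and not evidence of a factor at that place.

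The adult globin RNAs were abundant in the muscle, and in each library the order of the alpha and beta genes was the same. Hba-a1 (ENSMUSG00000069919.7, chr11:32283511-32284465 on mm10, plus strand), an alpha chain gene, stood at 719 TPM of the gene table in replicate 2 and 412 in replicate 1, a mean of 565 ± 217 TPM (SD, n = 2). Hba-a2 (ENSMUSG00000069917.7, chr11:32296489-32297298, plus strand), the second alpha chain gene, stood at 562 TPM in replicate 2 and 282 in replicate 1 (422 ± 198, SD, n = 2). Hba-a1 was the higher of the pair in both libraries, by 1.28-fold in replicate 2 and 1.46-fold in replicate 1.

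Among the beta genes the copies lay much farther apart. Hbb-bs (ENSMUSG00000052305.6, chr7:103826534-103828096, minus strand), the main beta chain gene, had 708 TPM in replicate 2 and 394 in replicate 1 (551 ± 222, SD, n = 2). Hbb-bt (ENSMUSG00000073940.3, chr7:103812524-103813996, minus strand), the other adult beta gene, had 84.5 TPM in replicate 2 and 44.8 in replicate 1 (64.6 ± 28.0, SD, n = 2). In the gene table Hbb-bs thus exceeded Hbb-bt by 8.38-fold in replicate 2 and 8.80-fold in replicate 1. By mean TPM among protein-coding genes, Hba-a1 held rank 78, Hbb-bs rank 81, Hba-a2 rank 114 and Hbb-bt rank 856. The means of Hba-a1, Hbb-bs and Hba-a2 differed by less than their SDs, which include the difference between libraries that these genes share. Within each library Hba-a1 was the highest, then Hbb-bs, then Hba-a2, and Hbb-bt lay below all 3.

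The 4 adult genes together reached 4237 TPM in replicate 2 and 2449 in replicate 1 in a second deposited transcript table (3343 ± 1264, SD, n = 2), and 2073 TPM in replicate 2 and 1133 in replicate 1 in the gene table (1603 ± 665, SD, n = 2). Their summed counts were much closer, with 0.919 times the gene-table count in the second table for replicate 2 and 0.943 times for replicate 1, so the tables differed more in TPM than in counts. In the gene table they took 0.0931% of all gene counts in replicate 2 and 0.0510% in replicate 1. Skeletal alpha-actin (Acta1), a main protein of the contractile filaments, was 11.6 times as high as this sum in replicate 2 and 20.03 times in replicate 1. Summed alpha TPM exceeded summed beta TPM by 1.62-fold in replicate 2 and 1.58-fold in replicate 1, a log2 ratio of 0.68 ± 0.02 (SD, n = 2).

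No embryonic globin RNA was counted in the gene table. Hba-x (ENSMUSG00000055609.8, chr11:32276400-32278116), which encodes the embryonic alpha-type zeta chain, and Hbb-y (ENSMUSG00000052187.4, chr7:103851749-103853216) and Hbb-bh1 (ENSMUSG00000052217.6, chr7:103841637-103843164), which encode embryonic beta-type chains, were listed at 0 counts in both libraries. A count of 0 allows up to 3 counts, which is 0.156 TPM for Hba-x, 0.173 TPM for Hbb-y and 0.180 TPM for Hbb-bh1 in replicate 2, and between 0.157 and 0.180 TPM in replicate 1. With that limit per library, the adult genes of the same cluster were at least 4407-fold higher than each embryonic gene in replicate 2 and at least 2439-fold higher in replicate 1. In the second table Hbb-bh1 had 1 estimated count in replicate 2 and Hba-x 1 in replicate 1, and Hbb-y had none.

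Alas2 and Slc4a1 were far below the globins. Alas2 (ENSMUSG00000025270.13, chrX:150547375-150570638, plus strand), the red cell form of the enzyme that starts haem synthesis, had 8.87 TPM in replicate 2 and 5.42 in replicate 1 (7.15 ± 2.44, SD, n = 2). Its counterpart in other cells, Alas1, was higher, with 83.9 TPM in replicate 2 and 70.4 in replicate 1. Apex2, on the other strand, overlaps the Alas2 gene and had 256 counts in replicate 2 and 326 in replicate 1. Strand use in counting is not stated in the notes used, so reads in the overlap cannot be told apart. Slc4a1 (ENSMUSG00000006574.15, chr11:102348824-102366203, minus strand), the band 3 anion exchanger of the red cell membrane, had 0.79 TPM in replicate 2 and 0.91 in replicate 1 (0.85 ± 0.085, SD, n = 2), from 46 and 41 counts. The adult globin sum was 234 times the Alas2 level in replicate 2 and 209 times in replicate 1.

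**Figure D2:**
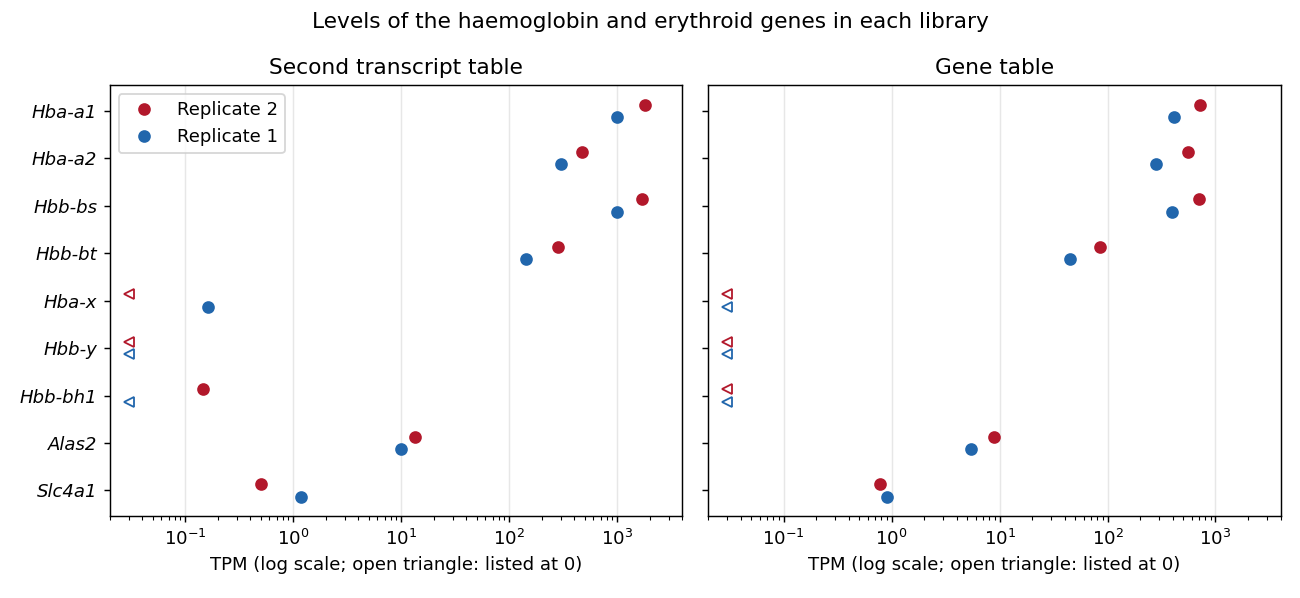
TPM of each of the 9 genes on a log axis in the second transcript table (left) and the gene table (right), with 1 point for replicate 2 and 1 for replicate 1 and open triangles for values listed at 0. The 4 adult globin genes lie between 44.8 and 1797 TPM, Alas2 and Slc4a1 lie lower, and the embryonic genes lie at 0 or at the level of 1 count.

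The second deposited transcript table, derived straight from the read files per the accompanying notes, divided the reads of a pair differently. Summed per gene, Hba-a2 had 0.310 times its gene-table count in replicate 2 and 0.398 times in replicate 1, while Hba-a1 had 1.24 and 1.17 times. Hbb-bt had 1.56 times its gene-table count in replicate 2 and 1.52 times in replicate 1, while Hbb-bs had 0.900 and 0.942 times. Over 13132 protein-coding genes whose counts averaged 20 or more, 0.883% were at least 1.5-fold above and 1.38% at least 1.5-fold below the gene table in both libraries, and the median ratio was 1.04 in replicate 2 and 1.05 in replicate 1. Hbb-bt was among the genes at least 1.5-fold above, and Hba-a2 among those at least 1.5-fold below.

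The sums of the pairs differed much less between the tables than the single copies did. The alpha pair kept 0.881 times its gene-table count in replicate 2 and 0.902 times in replicate 1, and the beta pair 0.979 and 1.01 times. Hba-a1 made up 79.2% of alpha TPM in replicate 2 and 77.0% in replicate 1 in the second table, against 56.1% and 59.4% in the gene table. Hbb-bs made up 85.7% of beta TPM in replicate 2 and 87.5% in replicate 1 in the second table, against 89.3% and 89.8% in the gene table. For both pairs the tables lay farther apart than the libraries within either table, by less for the beta pair. The level of each copy is thus uncertain, while the order within each pair was the same in both tables. The log2 ratio of alpha over beta TPM was 0.20 ± 0.01 in the second table and 0.68 ± 0.02 in the gene table (SD, n = 2).

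**Figure D3:**
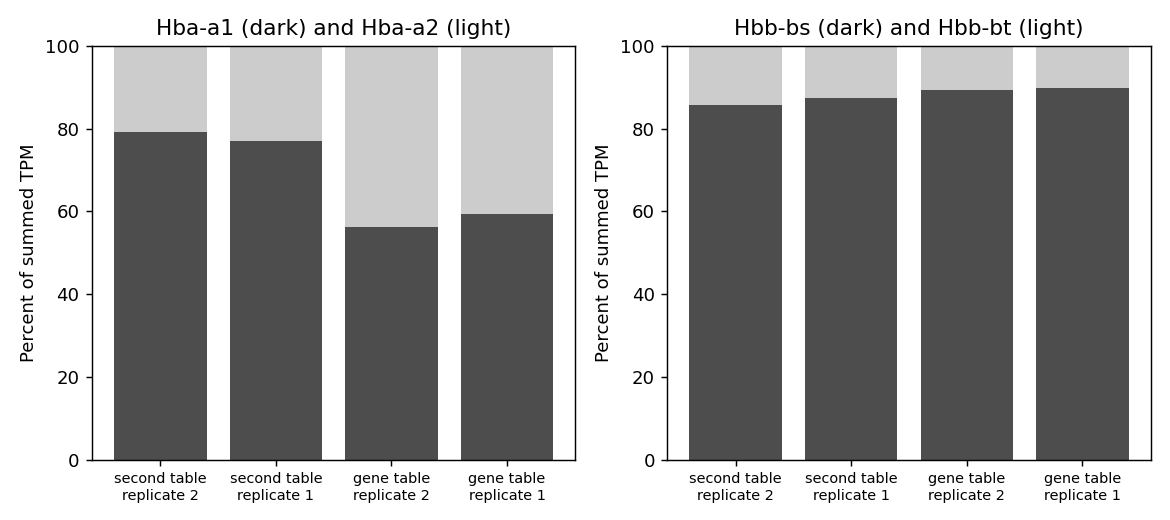
Percent of summed TPM taken by each copy of the alpha pair (left) and the beta pair (right) in the second table and the gene table, with 1 bar per library and table. The dark part, Hba-a1, is 79.2% and 77.0% in the second table and 56.1% and 59.4% in the gene table, while Hbb-bs stays between 85.7% and 89.8%.

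The transcript table that goes with the gene table also placed alpha reads on a transcript that keeps an intron. There, Hba-a1-202, a transcript of 494 bases that retains an intron, had 1595 counts in replicate 2 and 221 counts in replicate 1, which was 17.3% and 4.19% of the gene's TPM. Hba-a2-202, its counterpart, differs from it at 1 of 494 bases and had 0 counts in both libraries, and both transcripts had 0 in the second table. The ratio of replicate 2 over replicate 1 was 7.57-fold for Hba-a1-202 and 1.58-fold for Hba-a1-201, the spliced transcript. The posterior SD of the Hba-a1-202 count was 162 in replicate 2 and 86.8 in replicate 1. With 1 differing base and 0 counts in the second table, how many of these reads come from either gene is uncertain.

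Among the other transcripts, Hbb-bs-203 took 802 estimated counts in replicate 2 and 600 in replicate 1 in the second table, against 4.00 and 4.06 counts in the companion table. Alas2-201, the longest Alas2 transcript, made up 62.5% of the gene's TPM in replicate 2 and 74.5% in replicate 1. For Slc4a1 the full-length transcript Slc4a1-201 had 41.8 of the 46 counts in replicate 2 and 35.5 of the 41 in replicate 1, but only 36.7% and 27.0% of the gene's TPM. A processed transcript of 356 bases, Slc4a1-203, took 61.6% of that TPM in replicate 2 and 43.7% in replicate 1 from 4.06 and 3.32 counts, so the TPM of Slc4a1 rests largely on a few reads of short transcripts.

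Globin RNA was higher in replicate 2 than in replicate 1 for every adult gene. The ratio, computed from expected counts scaled with edgeR's TMM factors, was 1.75-fold for Hba-a1 (log2 0.81, interval 0.77 to 0.85), from 13178 counts in replicate 2 and 7898 in replicate 1. Hba-a2 had 8297 counts in replicate 2 and 4159 in replicate 1, a ratio of 2.09-fold (log2 1.07, interval 1.01 to 1.12). Hbb-bs had 12142 counts in replicate 2 and 6741 in replicate 1, a ratio of 1.89-fold (log2 0.92, interval 0.88 to 0.96). The second table turned the order of the alpha copies round, with a log2 ratio of 0.93 for Hba-a1 and 0.74 for Hba-a2, and the intervals leave out the uncertainty of dividing reads between them. The intervals of the summed alpha genes (1.87-fold, log2 interval 0.87 to 0.93) and the summed beta genes (1.90-fold, 0.89 to 0.97) overlapped.

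Hbb-bt had 1656 counts in replicate 2 and 878 in replicate 1, a ratio of 1.98-fold (log2 0.98, interval 0.87 to 1.10). Alas2 had 478 counts in replicate 2 and 313 in replicate 1, a ratio of 1.60-fold (log2 0.68, interval 0.47 to 0.89). Slc4a1 had a ratio of 1.17-fold with a log2 interval of -0.40 to 0.88, so a difference between the libraries was not detectable at this depth. In the second table the log2 ratios of the other members were 0.88 for Hbb-bs, 1.06 for Hbb-bt, 0.71 for Alas2 and 0.39 for Slc4a1.

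Of the 9 genes, 6 had a mean count of 20 or more, and 5 of these 6 were at least 1.5-fold higher in replicate 2. Among all 14667 genes at that minimum, 2.2% (322 genes) were at least 1.5-fold higher in replicate 2 and 4.27% (626 genes) at least 1.5-fold lower. Among the 11488 genes with means of at least 100 counts, 1.22% were at least 1.5-fold higher. The median log2 ratio of the 6 genes was 0.86, against 0.01 over all 14667 genes. The protein-coding genes whose ratio lay closest to that median, out of 10955 with means of at least 100 counts, were Mafk (0.86), Noct (0.86), Hspa1a (0.87), Errfi1 (0.88) and Lmcd1 (0.85); this likeness is over 2 libraries alone.

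The other erythroid genes that could be compared lay closer together in the libraries than the adult globin genes did. Of 80 listed genes of haem synthesis, the red cell membrane, erythroid transcription and red cell maturation, 79 matched the table and 60 had a mean count of 20 or more. None of the 60 was at least 1.5-fold higher in replicate 2 and 1 was at least 1.5-fold lower, with a median log2 ratio of 0.04. Over all 14667 genes the shares were 2.2% higher and 4.27% lower. Beside these shares, the counts past 1.5-fold here and in the separate lists below say little about the erythroid genes. The 1 gene that was lower was Add2, an adducin of the membrane skeleton, with 27 counts in replicate 2 and 48 in replicate 1.

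The 21 haem synthesis and transport genes were all at 1 TPM or more in both libraries, and 0 of 21 passed 1.5-fold either way (median log2 ratio 0.01). Fech, which inserts iron into the ring, had 35.4 TPM in replicate 2 and 33.8 in replicate 1, and Tmem14c, a mitochondrial carrier of haem precursors, had 32.3 and 33.9 TPM. Hmox1, which breaks haem down, had the largest positive log2 ratio of the list, 0.49, and Flvcr2 the largest negative one, -0.45. Every ratio of this list lay between these values and below that of each adult globin gene.

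Of the 23 red cell membrane genes, 16 could be compared and Add2 alone passed 1.5-fold. Ank1, an ankyrin that muscle also uses, had 254 TPM in replicate 2 and 276 in replicate 1. Tmod1, which caps actin filaments in red cells and muscle, had 99.2 TPM in replicate 2 and 109 in replicate 1, and Aqp1, a water channel also of capillaries, had 81.3 TPM and 71.0 TPM. Such genes are known from muscle and vessels as well as red cells. Slc2a1, a glucose transporter, had the largest positive log2 ratio, 0.48.

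Of 15 erythroid transcription factors, 10 could be compared and 0 passed 1.5-fold (median log2 ratio 0.04). Sox6, which muscle fibres also use, had 46.0 TPM in replicate 2 and 46.9 in replicate 1, and Zfpm1, a partner of GATA factors, had the largest positive ratio, 0.41. Of 20 matched genes of red cell enzymes and maturation, 13 could be compared and 0 passed 1.5-fold (median log2 ratio 0.04). Prdx2, a peroxidase abundant in red cells, had 119 TPM in replicate 2 and 111 in replicate 1, and Tfrc, the transferrin receptor, had 84.3 TPM and 68.2 TPM.

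**Figure D4:**
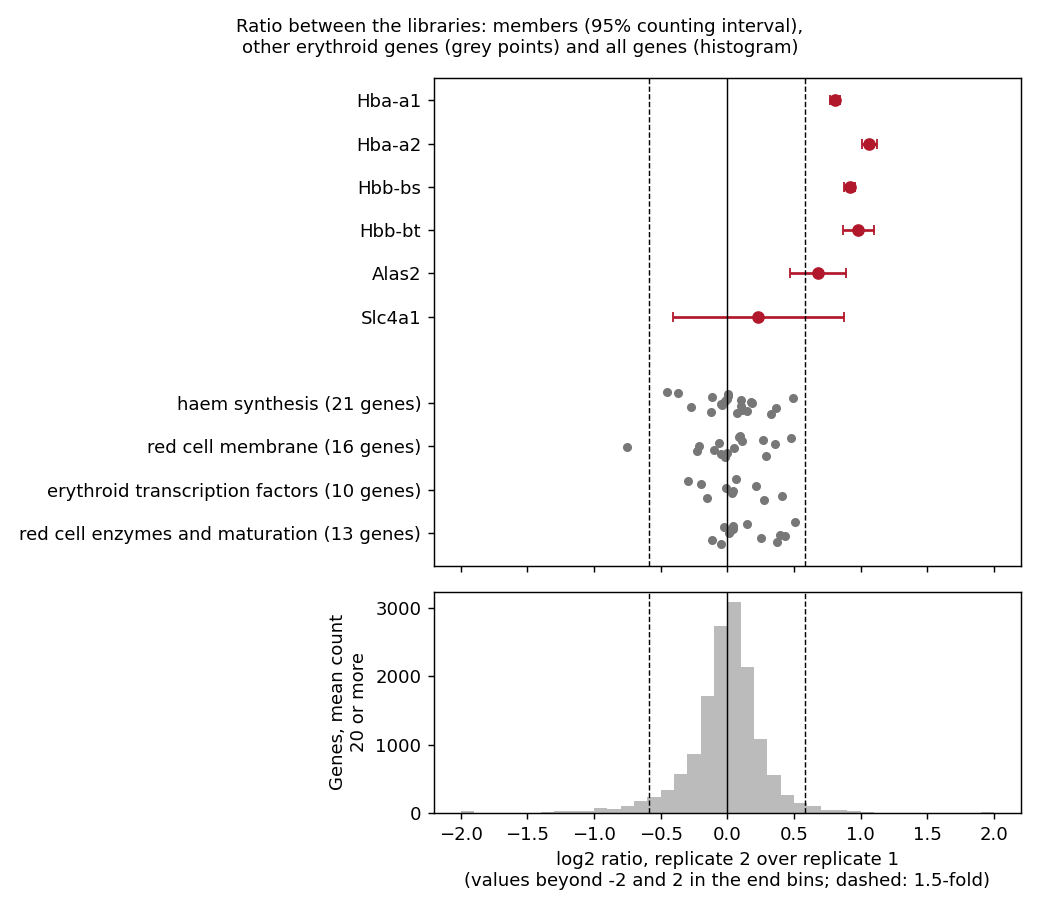
Log2 ratio of replicate 2 over replicate 1 for the 6 members with a mean count of 20 or more (red, with 95% counting intervals), for the other erythroid genes by list (grey), and as a histogram over all 14667 genes, with dashed lines at 1.5-fold. The adult globin genes and Alas2 lie between 0.68 and 1.07, to the right of the 60 grey points.

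Genes that few cells other than red cell precursors use were near 0 in both libraries. Of 15 such genes 14 matched, 13 of the 14 were under 1 TPM in both libraries and 3 (Rhag, Hemgn and Cldn13) were listed at 0 in both. Klf1, a transcription factor of red cell precursors, had 0.02 TPM in both libraries, and Gata1, another, had 0.02 TPM in replicate 2 and 0.05 in replicate 1. Tspan33 was the 1 gene of the list at 1 TPM or more, with 1.68 TPM in replicate 2 and 1.33 in replicate 1. The 14 genes summed to 177 counts in replicate 2 and 139 in replicate 1, a ratio of 1.34-fold (log2 0.42, interval 0.09 to 0.75). Tspan33 alone gave 104 of these counts in replicate 2 and 83 in replicate 1 (log2 0.39, interval -0.03 to 0.83). The sum thus rests largely on that gene and does not describe the list as a whole.

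**Figure D5:**
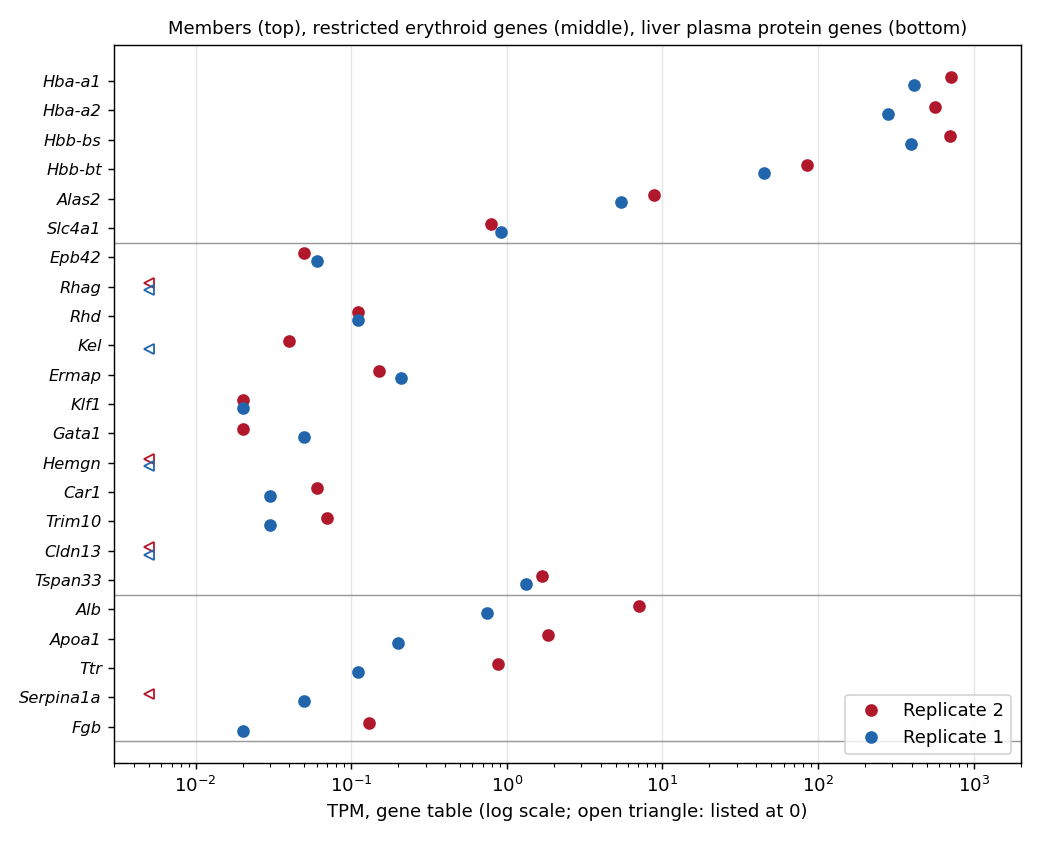
TPM in the gene table on a log axis for the 6 detected members (top), 12 of the 14 restricted erythroid genes (middle) and the 5 liver plasma protein genes (bottom), with 1 point per library and open triangles for values listed at 0. The adult globin genes lie above 44 TPM, all but Tspan33 of the restricted genes drawn lie below 1 TPM, and Alb, Apoa1, Ttr and Fgb are higher in replicate 2.

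Markers of platelets and white blood cells had close sums in the libraries or too few counts to compare. The 10 platelet markers summed to 15.2 TPM in replicate 2 and 13.9 in replicate 1, of which Pf4, a platelet chemokine, gave 13.9 and 12.7 TPM, and Gp9 was at 0 in both. The 8 leukocyte markers summed to 44.1 TPM in replicate 2 and 40.8 in replicate 1, and the 8 granulocyte markers to 1.43 TPM in replicate 2 and a like sum in replicate 1. The 8 lymphocyte markers summed to 0.48 TPM in replicate 2 and 0.99 in replicate 1. None of the 9 platelet and leukocyte markers whose counts averaged 20 or more passed 1.5-fold. With 2.2% of all genes past that fold upward and 4.27% downward, this count says little about these cells.

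Liver genes with enough counts to compare were higher in replicate 2, and endothelial markers differed little. The 8 endothelial markers, from the cells that line the vessels, had sums of 195 TPM in replicate 2 and 179 in replicate 1 and a median log2 ratio of 0.20, against 0.10 for the 8 skeletal muscle markers. All 8 endothelial ratios were above 0 on the log2 scale and 0 of 8 passed 1.5-fold. Beside the shares of 2.2% upward and 4.27% downward over all genes, that count of 0 says little. The 5 liver plasma protein genes summed to 9.89 TPM in replicate 2 and 1.13 in replicate 1, and none of the 5 was at 0 in both libraries. Only Alb and Apoa1 had a mean count of 20 or more, and Serpina1a went the other way, listed at 0 in replicate 2 and at 0.05 TPM in replicate 1. Alb, which encodes serum albumin, had 442 counts in replicate 2 and 47 in replicate 1, a ratio of 9.78-fold (log2 3.29, interval 2.87 to 3.77). Over the 5 genes, with 545 counts in replicate 2 and 59.8 in replicate 1, the ratio was 9.57-fold, larger than that of any globin gene. Most of these counts were from Alb, so this ratio largely repeats that of Alb. The part of these liver transcripts and of vessel content in the globin difference was not tested.

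Among globins outside the red cell, Mb, which encodes the oxygen store myoglobin of muscle, had 284 TPM in replicate 2 and 177 in replicate 1, a ratio of 1.64-fold (log2 0.71, interval 0.66 to 0.76). Cygb, a globin of connective tissue cells, had 10.2 TPM in replicate 2 and 11.3 in replicate 1. The adult haemoglobin sum was 7.30 times the Mb level in replicate 2 and 6.41 times in replicate 1. Of the 10 other globin genes and pseudogenes listed, 6 were at 0 in both libraries. Genes listed as neighbours of the alpha cluster were chosen by name. Their mouse positions are not given here, so some may lie elsewhere. Of the 8 that could be compared, the median log2 ratio was -0.01 and 0 passed 1.5-fold. With 2.2% of all genes past that fold upward and 4.27% downward, this count says little about the listed genes. Snrnp25, a spliceosome gene, came closest at 1.48-fold (log2 0.57, interval 0.12 to 1.03). Nprl3, whose introns hold the alpha-globin enhancers, had 7.72 TPM in replicate 2 and 8.06 in replicate 1.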

How the data were processed

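RNA was measured by total RNA-seq in 2 libraries of 1 group. The authors deposited gene and transcript tables of expected counts and TPM (a column layout that RSEM uses), with each transcript's percent of its gene's TPM and posterior SDs of the counts, based on mm10 alignments and the GENCODE M21 annotation, per the file headers and notes. A second deposited transcript table gives estimated counts and TPM as kallisto lays them out. No aligner, program version or strand setting is stated in these sources. The effective length of Hba-a2 is 455 for a transcript of 554 bases.

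Deposited expected counts were rounded and scaled with edgeR 4.0.16 TMM factors (R 4.3.3) over endogenous genes averaging at least 10 counts. Log2 ratios used a prior count of 0.5 for genes averaging at least 20 counts. On simulated counts for 14669 genes, 200 of them changed, the largest error of a median log2 ratio was 0.09. Levels are mean ± SD over 2 libraries. No test was possible. Rows with bare number identifiers (26248) held 1.97 counts in replicate 2 and 0.96 in replicate 1 and were left out of the scaling. Counting intervals and the limit of 3 counts cover counting error only, since PCR copies are not independent molecules.

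The members, gene lists and comparisons were chosen with earlier results of these data known. Named genes are all members, the 3 highest and the most shifted of each list, and genes of the restricted and short lists, some of which are not reported here. Alternatives were DESeq2 1.42.0 size factors, library totals, spike-in totals, the second table, other minimum counts, prior counts and folds. Promoters came from RefSeq (GRCm38.p6) and transcripts from GENCODE M21. No amino acid sequence is given.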

Additional observations from a re-analysis of the deposited data

How the results depend on the processing

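Without replicate 1 or without replicate 2, the adult globin sum was between 1133 and 2073 TPM, the log2 of alpha over beta between 0.66 and 0.69, the Hba-a1 share between 56.1% and 59.4% and the Hbb-bs share between 89.3% and 89.8%. Ratios between the libraries cannot be given without a library. No paired analysis was possible because there is 1 group. The second table gave a sum of 3343 TPM, a log2 of alpha over beta of 0.20, an Hba-a1 share of 78.1%, an Hbb-bs share of 86.6% and an embryonic share of 0.00505%, against 1603 TPM, 0.68, 57.8%, 89.6% and 0% in the gene table. Rescaling TPM without the 7SL genes and spike-ins gave a sum of 2325 TPM, expected counts in place of TPM gave 0.65 for alpha over beta, and posterior mean TPM gave an embryonic share of 0.0160%. The count of 5 members at least 1.5-fold higher held under every scaling, table, minimum and prior tried, and was 1 at a fold of 2. The count of 0 other erythroid genes was 1 in the second table (Ube2l6, log2 0.64, named after its values were seen), 1 at a minimum mean count of 5 and 10 at the looser fold tried. The members' median log2 ratio was 0.82 with library totals, 0.81 in the second table, 0.92 at a minimum of 100 and 0.78 as a mean, against 0.86. Of 36 alternatives for single members 4 moved a ratio beyond its counting interval and 0 reversed one. The causes were not tested. Depth limits Slc4a1 and the embryonic genes.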
